A study of Mus musculus with 3 samples.

Results

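The 9 genes described here encode the proteins that release, store, pump and buffer calcium in skeletal muscle fibres: *Ryr1*, *Cacna1s*, *Atp2a1*, *Atp2a2*, *Casq1*, *Casq2*, *Sln*, *Pln* and *Pvalb*. They were taken by symbol from a table of 26970 genes, and all 9 were found, each with 1 value per library. The table comes from RNA sequencing of mandibular condyles, the jaw bone heads of the temporomandibular joint, of mice aged 4 months, and the study asked what loss of dentin sialophosphoprotein (the product of *Dspp*) does to this joint. There was 1 library for each of 3 genotypes: WT (+/+), *Dspp*+/- (1 *Dspp* allele deleted in the whole animal) and *Dspp*-/- (both alleles deleted), all in the C57BL/6 background. Tissue of 3 animals was pooled for WT and for *Dspp*+/-, and the number of animals behind *Dspp*-/- is not given in the sources used here.

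Calcium handling couples a nerve signal to the shortening of a muscle fibre. At the triad, where a surface membrane tubule meets the sarcoplasmic reticulum (SR), the voltage sensor Cacna1s opens the SR channel Ryr1, and calcium held on calsequestrin inside the SR flows out and starts contraction. SERCA pumps, encoded by *Atp2a1* and *Atp2a2*, return calcium to the SR under the brake of small membrane proteins such as sarcolipin (*Sln*) and phospholamban (*Pln*), while parvalbumin (*Pvalb*) buffers calcium in the cytosol of fast fibres. Fast fibres are known for *Atp2a1*, *Casq1* and *Pvalb*, and slow fibres and heart for *Atp2a2*, *Casq2* and *Pln*. The condyle itself is bone and cartilage, and jaw muscle attaches beside it.

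No genotype had a second library, so no test between genotypes was possible and every difference given is a difference between single libraries. Values are FPKM, fragments per kilobase of exon scaled to the size of the library, so levels of different genes are on a common scale, except where a gene shares sequence or overlaps with another. The fragments recovered from these values numbered 20241579, 23613618 and 22253165 for WT, *Dspp*+/- and *Dspp*-/-. All intervals are 95% Clopper-Pearson intervals from those fragments and cover counting error only, not the spread between animals. Mitochondrial genes took 25.02%, 36.9% and 37.3% of summed FPKM in the WT, *Dspp*+/- and *Dspp*-/- libraries. The pools also differed in sex-linked transcripts. *Xist*, made by the inactive X chromosome of female cells, was at 0.00551, 28.5 and 26.5 FPKM in WT, *Dspp*+/- and *Dspp*-/-, and 4 Y-linked genes (*Ddx3y*, *Eif2s3y*, *Kdm5d*, *Uty*) summed to 36.6, 19.0 and 25.9 FPKM. The sex of the animals is not given in the sources used here, and its part in the differences below was not tested and cannot be told apart from genotype.

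Sequence from a reference genome shows what lies at some of these genes. Of the 9 genes, 7 have a promoter window in the RefSeq table (build GRCm38.p6), and the 250 bases before the start were searched on both strands for muscle promoter motifs. The windows below belong to the gene with the lowest and the gene with the highest ratio to WT in *Dspp*+/- among those over 1 FPKM (*Pvalb* and *Casq2*) and to the most abundant gene (*Atp2a1*). Capitals mark a MEF2 site in the first pair and CAGCTG, the E-box form bound by myogenic factors, in the last. Each is written 5′ to 3′ on the strand of its gene.
Pvalb, chr15:78206401-78206650, minus strand, GRCm38.p6: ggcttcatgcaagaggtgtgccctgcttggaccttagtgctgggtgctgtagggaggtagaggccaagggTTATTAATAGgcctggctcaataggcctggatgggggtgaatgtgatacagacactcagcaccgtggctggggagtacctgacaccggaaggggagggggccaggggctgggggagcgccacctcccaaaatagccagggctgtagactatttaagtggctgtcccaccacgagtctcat
Casq2, chr3:102086165-102086414, plus strand, GRCm38.p6: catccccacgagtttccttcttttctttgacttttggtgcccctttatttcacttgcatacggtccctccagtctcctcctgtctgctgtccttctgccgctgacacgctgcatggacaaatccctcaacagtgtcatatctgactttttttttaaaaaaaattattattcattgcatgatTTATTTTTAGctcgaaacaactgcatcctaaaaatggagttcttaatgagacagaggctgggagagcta
Atp2a1, chr7:126463074-126463323, minus strand, GRCm38.p6: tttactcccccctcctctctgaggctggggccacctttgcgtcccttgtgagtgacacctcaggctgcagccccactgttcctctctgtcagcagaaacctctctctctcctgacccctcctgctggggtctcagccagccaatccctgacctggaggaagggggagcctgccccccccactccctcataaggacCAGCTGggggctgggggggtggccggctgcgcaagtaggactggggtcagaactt

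A MEF2 site, the binding motif of myocyte enhancer factor 2, was found 180 to 171 bases before the upstream start of *Pvalb* and 69 to 60 bases before that of *Casq2*, and in 2.92% of all 32851 promoters. CAGCTG was found in *Atp2a1* (55 to 50 bases before the start), *Cacna1s* (123 to 118) and *Casq1* (195 to 190), and in 13% of all promoters. The wider E-box CANNTG, which includes CAGCTG, was found for 6 of the 7 genes and in 66.2% of all promoters, and *Ryr1* was the 1 gene without it. *Pvalb* has a window at each of 2 starts, and its E-box lies in the other one, not in the window shown. Members are counted as genes but the shares are of promoter windows, so *Pvalb* had 2 chances of each match. The CArG box, bound by serum response factor, was found for 0 of the 7 genes against 1.47% of all promoters, and TATAAA for 1 of 7 (*Pln*) against 12.4%. So *Pvalb* and *Casq2*, which lay farthest apart in *Dspp*+/-, both held a MEF2 site, and a match of letters does not show binding. *Sln* and *Atp2a2* were not in the promoter table.

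The pump inhibitors are very short proteins, and *Sln* and *Pln* had the fewest fragments of the 9 genes. Their coding sequences, from GENCODE M21 transcripts (GRCm38), are shown whole with the start and stop codons in capitals.
Sln, chr9:53853473-53853568, plus strand, GRCm38: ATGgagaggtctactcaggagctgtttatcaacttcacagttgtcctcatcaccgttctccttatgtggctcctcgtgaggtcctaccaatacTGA
Pln, chr10:53343864-53344022, plus strand, GRCm38: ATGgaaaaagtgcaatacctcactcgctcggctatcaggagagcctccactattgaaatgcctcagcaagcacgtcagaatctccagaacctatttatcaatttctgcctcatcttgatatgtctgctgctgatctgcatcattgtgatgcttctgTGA
The *Sln* frame has 31 codons before its stop and that of *Pln* has 52, each in 1 coding exon. The FPKM values are per length of all exons, not of these frames alone.

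The fast-fibre pump gene led in every library. By FPKM, the order in WT and in *Dspp*+/- was *Atp2a1*, *Pvalb*, *Casq1*, *Ryr1*, *Atp2a2*, *Cacna1s*, *Casq2*, *Sln* and *Pln*. In *Dspp*-/- it differed only in that *Cacna1s* stood ahead of *Atp2a2*, and there these neighbours did not differ beyond counting error, with a ratio of *Atp2a2* to *Cacna1s* of 0.993 (interval 0.958 to 1.03). *Sln* and *Pln* also did not differ beyond counting error in WT, where their ratio was 1.26 (0.485 to 3.06), and in *Dspp*-/-, where it was 1.03 (0.630 to 1.64). In *Dspp*+/- *Sln* was 1.90 times *Pln* (1.26 to 2.86). Every other pair of neighbours in the WT order had an interval that excluded 1 in each of the 3 libraries. Together the 9 genes held 0.642%, 0.668% and 0.583% of summed FPKM in these libraries.

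**Figure D1:**
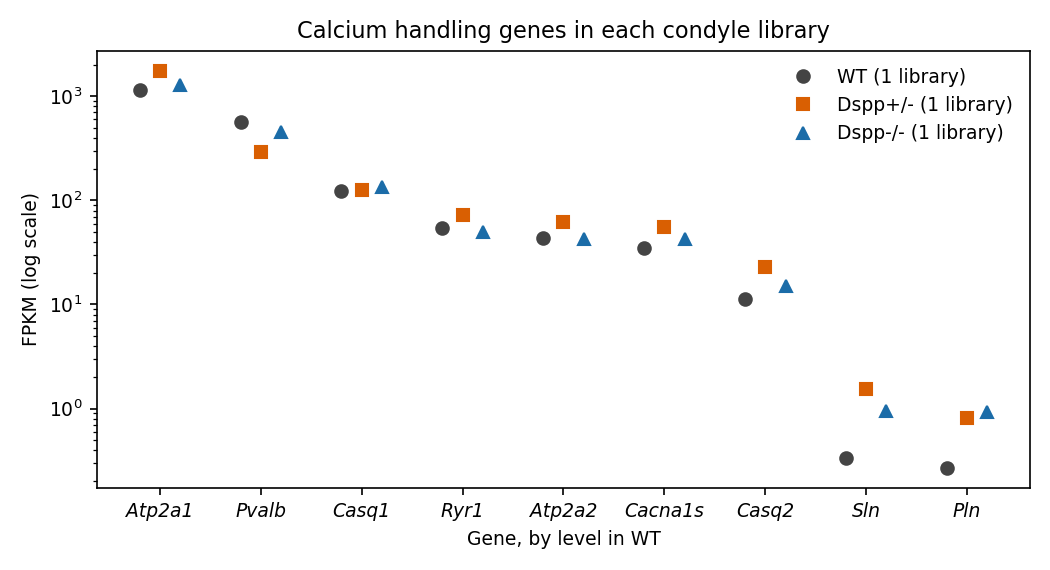
FPKM (log scale) of each of the 9 calcium handling genes in the WT, Dspp+/- and Dspp-/- condyle libraries, 1 point per library, with genes ordered by their level in WT. Atp2a1 is highest in each library, Pvalb is lowest in Dspp+/-, and Sln and Pln are under 1 FPKM in WT.

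Against WT, 8 of the 9 genes were higher in *Dspp*+/- and *Pvalb* alone was lower. The interval of the fold excluded 1 for 7 of the 8 higher genes, *Casq1* being the other, and for *Pvalb*. In *Dspp*-/-, 6 of the 9 were higher and 3 were lower (*Pvalb*, *Atp2a2* and *Ryr1*), each with an interval that excluded 1. How many of all genes were higher, lower or had such an interval was not computed, so these counts do not set the members apart. The median log2 ratio of FPKM + 1 over the 9 genes was 0.52 in *Dspp*+/- and 0.18 in *Dspp*-/-. Over the 7 of them with a mean level of 1 FPKM or more it was 0.50 and 0.14, beside 0.06 and 0.01 over the 13026 genes compared, chosen by that same level. Both comparisons use the same WT library, so a shared direction is not independent. In whole tissue, a difference in the number of muscle fibres and a difference in RNA per fibre cannot be told apart.

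A mean of at least 1 FPKM was reached by 7 of the 9 genes. *Sln* (mean 0.945 FPKM) and *Pln* (mean 0.670 FPKM) stayed under it. No member that passed was 2-fold or more from WT on the log2 scale of FPKM + 1. In *Dspp*+/- 0 of 7 were 2-fold higher, beside 4.88% of all genes compared, and 0 of 7 were 2-fold lower, beside 2.86%. In *Dspp*-/- these numbers were also 0 of 7, beside 4.05% higher and 1.37% lower. At 1.5-fold, *Atp2a1*, *Casq2* and *Cacna1s* were higher in *Dspp*+/- (3 of 7, beside 11.5% of all genes compared) and *Pvalb* was lower (1 of 7, beside 8.95%). No member that passed was 1.5-fold from WT in *Dspp*-/-, where 8.84% of all genes compared were higher and 8.21% lower. Without the level filter *Sln* joined the higher genes in *Dspp*+/- (4 of 9) and *Pln* was past 1.5-fold in *Dspp*-/- (1 of 9).

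**Figure D2:**
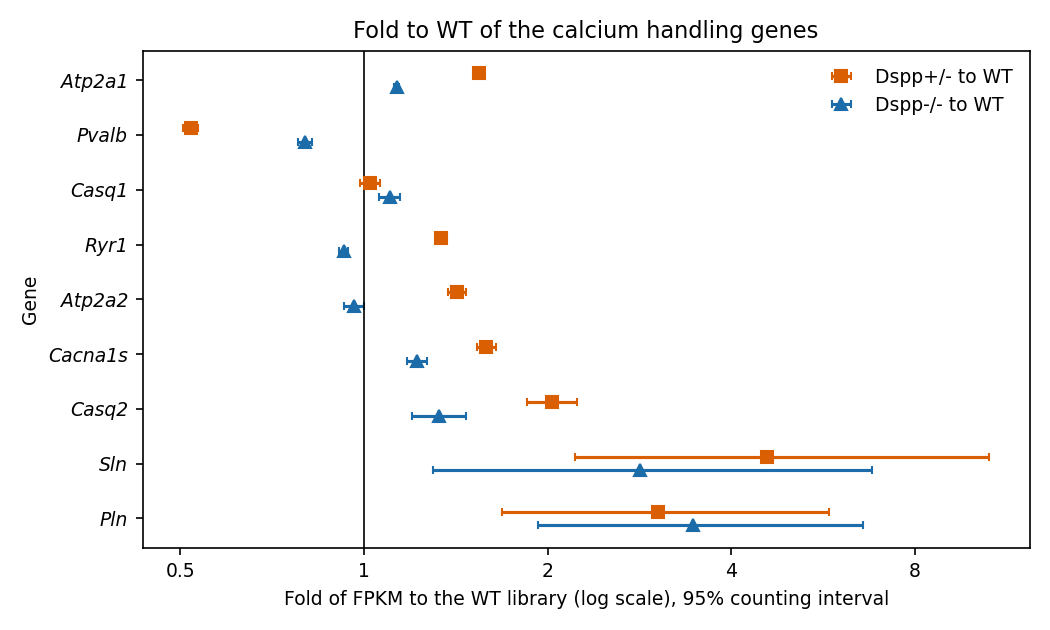
Fold of FPKM to the WT library (log scale) for each gene in Dspp+/- (squares) and Dspp-/- (triangles), 1 library each, where bars are 95% counting intervals and the vertical line is a fold of 1. Pvalb is left of the line in both libraries, Ryr1 and Atp2a2 lie on opposite sides of it, and the bars of Sln and Pln are wide because few fragments were counted.

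The release machinery came first in the path of the signal. *Ryr1*, the SR calcium release channel (ENSMUSG00000030592, chromosome 7 from 28702769 to 28824604 in the positions of the deposited table), was at 53.9, 72.2 and 49.9 FPKM in WT, *Dspp*+/- and *Dspp*-/-. The *Dspp*+/- library was the high one, with a fold to WT of 1.34 (1.32 to 1.36), and *Dspp*-/- lay just under WT at 0.926 (0.910 to 0.943). Its log2 ratio in *Dspp*+/- was 0.41 and became 0.14 under scaling to housekeeping genes, which lowered the median of all genes by 0.22. That set includes *Gapdh*, which was 2.085-fold higher in *Dspp*+/- (1.827 to 2.384). Of its 100-base stretches 20.86% occur in other genes (86 of them), so every housekeeping scaling given here carries that limit. *Cacna1s*, the voltage sensor subunit that triggers it (ENSMUSG00000026407, chromosome 1 from 135980488 to 136047560), was at 34.8, 55.2 and 42.6 FPKM in WT, *Dspp*+/- and *Dspp*-/-. Both mutant libraries were above WT for the sensor, by 1.59-fold (1.53 to 1.64) and 1.22-fold (1.18 to 1.27), and the log2 ratio of 0.65 in *Dspp*+/- became 0.38 under housekeeping scaling. The ratio of channel to sensor was therefore highest in WT at 1.55 (1.5 to 1.60), lower in *Dspp*+/- at 1.31 (1.276 to 1.34) and lowest in *Dspp*-/- at 1.17 (1.14 to 1.21), and these intervals did not overlap. In GENCODE M21, 19.98% of the exon length of *Cacna1s* and 4.18% of that of *Ryr1* is covered by genes of the other strand. The sources used here do not state whether strand was used in counting, so reads of such a gene and its antisense partner cannot be told apart.

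Of the pumps, *Atp2a1*, which encodes SERCA1 of fast fibres (ENSMUSG00000030730, chromosome 7 from 126045030 to 126062280), was at 1146, 1767 and 1297 FPKM in WT, *Dspp*+/- and *Dspp*-/-. It ranked 21, 13 and 19 among all genes of these libraries. It was 1.54-fold above WT (1.53 to 1.55) in *Dspp*+/- and 1.13-fold (1.12 to 1.14) in *Dspp*-/-, so *Dspp*-/- lay between the others and nearer to WT. Housekeeping scaling took its log2 ratio in *Dspp*+/- from 0.62 to 0.35. *Atp2a2*, which encodes SERCA2 of slow fibres, heart and, in a housekeeping form, most other cells (ENSMUSG00000029467, chromosome 5 from 122591576 to 122640288), was at 43.9, 62.4 and 42.3 FPKM in WT, *Dspp*+/- and *Dspp*-/-. It was higher in *Dspp*+/- by 1.42-fold (1.37 to 1.47), a log2 ratio of 0.50 that became 0.22 under housekeeping scaling, while *Dspp*-/- was at 0.962 of WT (0.927 to 0.999). The *Dspp*-/- difference turned to the other side, with a log2 ratio of 0.02 in place of -0.05, when values were scaled by a sum without mitochondrial genes. The fast pump outnumbered the other by 26.1 to 1 in WT (25.4 to 26.8), 28.3 to 1 in *Dspp*+/- (27.7 to 28.9) and 30.7 to 1 in *Dspp*-/- (29.9 to 31.5). The ratio was thus larger in both mutant libraries than in WT, with intervals that did not overlap. For *Atp2a1*, 21.9% of exon length is overlapped on the other strand by *Rabep2*, and for *Atp2a2* the overlapped share is 1.36%.

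The SR store genes parted from each other. *Casq1*, calsequestrin of fast fibres (ENSMUSG00000007122, chromosome 1 from 172037461 to 172047435), was at 123, 126 and 135 FPKM in WT, *Dspp*+/- and *Dspp*-/-. It was the member closest to WT in *Dspp*+/-, with folds of 1.02 (0.986 to 1.06) there and 1.10 (1.06 to 1.14) in *Dspp*-/-, and its direction depended on scaling. In *Dspp*+/- its log2 ratio ran from -0.24 to 0.06 over 7 settings, falling below 0 in 3 of them, and in *Dspp*-/- it went from 0.14 to -0.03 under scaling without hemoglobin, immunoglobulin and muscle genes. *Casq2*, calsequestrin of heart and slow fibres (ENSMUSG00000027861, chromosome 3 from 101993731 to 102053830), was at 11.3, 22.95 and 14.98 FPKM in WT, *Dspp*+/- and *Dspp*-/-. It was 2.03-fold higher in *Dspp*+/- (1.85 to 2.24) and 1.33-fold higher in *Dspp*-/- (1.20 to 1.47), the largest folds among the 7 members over 1 FPKM in each library. *Casq1* exceeded *Casq2* by 10.9 to 1 in WT (10.01 to 11.8), 5.48 to 1 in *Dspp*+/- (5.18 to 5.81) and 9.04 to 1 in *Dspp*-/- (8.42 to 9.70). The *Dspp*+/- library was the lowest by far, and none of the 3 intervals overlapped. Genes of the other strand cover 7.996% of the exon length of *Casq1* and none of that of *Casq2*.

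The pump inhibitor genes were at the edge of detection. *Sln*, sarcolipin, a regulator of SERCA1 (ENSMUSG00000042045, chromosome 9 from 53757448 to 53761844), was at 0.337, 1.54 and 0.955 FPKM in WT, *Dspp*+/- and *Dspp*-/-, from 9, 48 and 28 fragments. *Pln*, phospholamban, a regulator of SERCA2 (ENSMUSG00000038583, chromosome 10 from 53213763 to 53222083), was at 0.269, 0.814 and 0.928 FPKM, from 15, 53 and 57 fragments. WT was the low library for both. *Sln* was 4.57-fold higher in *Dspp*+/- (2.22 to 10.6) and 2.83-fold higher in *Dspp*-/- (1.298 to 6.82). *Pln* was 3.03-fold (1.68 to 5.79) and 3.46-fold higher (1.93 to 6.57). These are the largest linear folds of the 9 genes, on the fewest fragments, and on the log2 scale of FPKM + 1 they shrink to between 0.52 and 0.93. Between the mutant libraries neither gene differed beyond counting error, with *Dspp*-/- to *Dspp*+/- ratios of 0.619 (0.374 to 1.01) for *Sln* and 1.14 (0.771 to 1.69) for *Pln*. In every library *Sln* was far scarcer than the pump it restrains, at 0.294 (0.135 to 0.559), 0.873 (0.644 to 1.16) and 0.736 (0.489 to 1.06) per 1000 of *Atp2a1* in WT, *Dspp*+/- and *Dspp*-/-. For *Pln*, 64.7% of exon length lies on the other strand of *Cep85l* and a predicted gene, so reads of these genes cannot be told apart and any ratio of *Sln* to *Pln* carries that limit. *Sln* overlaps no other gene.

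*Pvalb*, the cytosolic calcium buffer of fast fibres (ENSMUSG00000005716, chromosome 15 from 78075314 to 78090600), differed from the rest in its order over the libraries. It was at 567, 294 and 453 FPKM in WT, *Dspp*+/- and *Dspp*-/-. It was the 1 member that was highest in WT and lowest in *Dspp*+/-. The *Dspp*+/- library was at 0.520 of WT (0.505 to 0.535), the *Dspp*-/- library was at 0.800 (0.779 to 0.821), and *Dspp*-/- exceeded *Dspp*+/- by 1.54-fold (1.49 to 1.59). The log2 ratio in *Dspp*+/- was -0.94 and ran from -1.22 to -0.91 over 7 settings, so it was past 2-fold in 3 of them. No exon base of *Pvalb* overlaps another gene. Relative to the fast pump, *Pvalb* stood at 0.494 (0.485 to 0.504) in WT, 0.167 (0.163 to 0.171) in *Dspp*+/- and 0.350 (0.343 to 0.357) in *Dspp*-/-. Buffer and pump are both genes of fast fibres, yet their ratio differed between each pair of libraries by more than counting error.

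**Figure D3:**
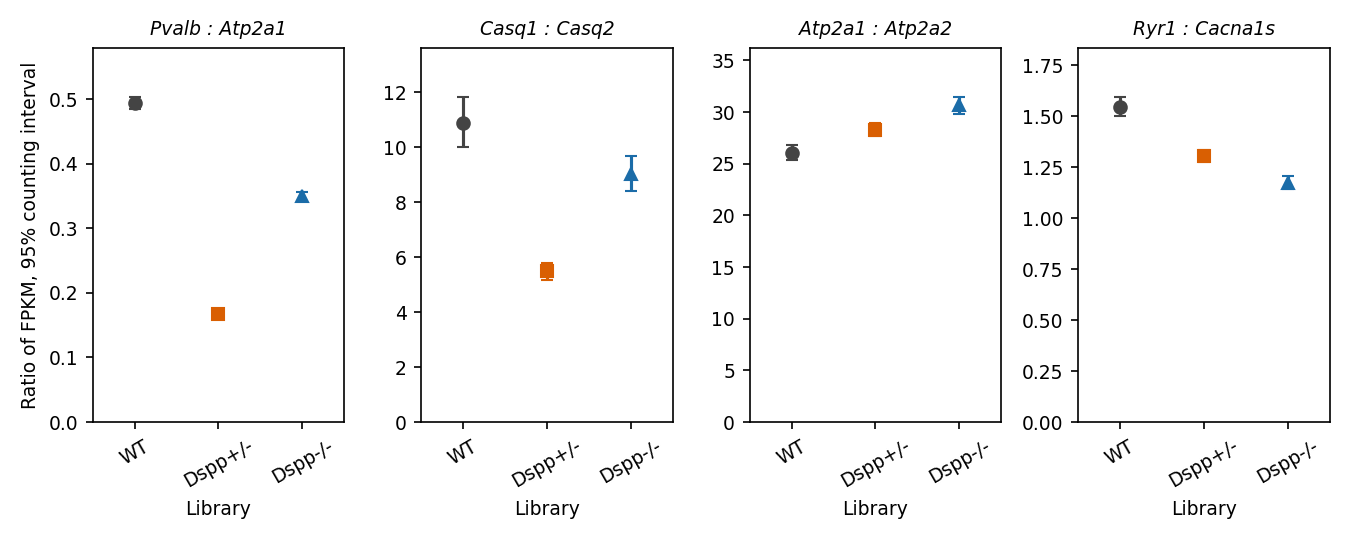
Ratio of FPKM between the genes of 4 pairs (axes start at 0) in each library, 1 point per library with its 95% counting interval. Pvalb to Atp2a1 and Casq1 to Casq2 are lowest in Dspp+/-, Atp2a1 to Atp2a2 is highest in Dspp-/-, and Ryr1 to Cacna1s is highest in WT.

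Set against *Dspp*+/-, the *Dspp*-/- library was lower for 6 of the 9 genes and higher for 3, and the interval excluded 1 for 5 of the lower and 2 of the higher. These counts were not computed over all genes. *Casq2* was at 0.653 of its *Dspp*+/- level (0.600 to 0.709), *Atp2a2* at 0.678 (0.655 to 0.700) and *Ryr1* at 0.692 (0.681 to 0.703). *Atp2a1* was at 0.734 (0.728 to 0.740) and *Cacna1s* at 0.771 (0.746 to 0.796), while *Casq1* was at 1.08 (1.04 to 1.12). For most of these genes, then, *Dspp*+/- was the library that stood apart, not *Dspp*-/-.

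Muscle fibre RNA as a whole also differed between the libraries. Of 21 contractile markers of skeletal muscle, 20 averaged 1 FPKM or more, and the list summed to 14132, 19090 and 15137 FPKM in WT, *Dspp*+/- and *Dspp*-/-. Their median log2 ratio to WT was 0.43 in *Dspp*+/- (16 above 0, 4 below, 1 past 2-fold higher and 3 past 2-fold lower) and 0.10 in *Dspp*-/- (12 above, 8 below, none past 2-fold), and the latter became -0.07 under scaling without hemoglobin, immunoglobulin and muscle genes. The *Dspp*+/- median became 0.24 under that scaling and 0.15 under scaling to housekeeping genes. *Acta1*, skeletal actin, was at 5609, 8162 and 7150 FPKM, and *Tnnt3*, fast troponin T, at 1450, 1950 and 1218. Most contractile markers were thus above WT in *Dspp*+/-, as most members were, and the part of muscle content in the members' differences was not tested. *Tnnc2*, fast troponin C, was listed at 0 in WT and *Dspp*-/- and had 1 fragment in *Dspp*+/-, and 74% of its exon length is overlapped by *Ube2c*.

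Set against the contractile median, several members had little difference left, though this depended on the reference. In *Dspp*+/- the log2 ratio minus that median was -0.01 for *Ryr1*, 0.07 for *Atp2a2*, 0.20 for *Atp2a1* and 0.22 for *Cacna1s*. For *Pln*, under 1 FPKM, it was 0.09, but adding 1 to each value shrinks the ratio of so scarce a gene. With 0.1 added in place of 1, the log2 ratio of *Pln* was 1.31, beside a contractile median of 0.43. *Casq2* stayed above it by 0.54 and *Sln* by 0.50, while *Casq1* was under it by 0.39 and *Pvalb* by 1.37. Among the 20 markers, 19 had a smaller ratio than *Casq2*, 14 a smaller one than *Atp2a1*, 4 a smaller one than *Casq1* and 3 a smaller one than *Pvalb*. The same difference in *Dspp*-/- was -0.42 for *Pvalb*, -0.21 for *Ryr1*, -0.16 for *Atp2a2*, 0.04 for *Casq1*, 0.07 for *Atp2a1*, 0.18 for *Cacna1s*, 0.28 for *Casq2*, 0.44 for *Sln* and 0.50 for *Pln*. *Pvalb* was at the low end and *Casq2* above the median in both mutant libraries. With the fast-fibre markers described below as reference, more was left in *Dspp*+/- for most of these genes. The differences were then 0.26 for *Ryr1*, 0.34 for *Atp2a2*, 0.47 for *Atp2a1*, 0.50 for *Cacna1s* and -0.12 for *Casq1*. Against slow-fibre markers they were -0.14, -0.06, 0.07, 0.09 and -0.52 in the same order.

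The 3 markers with a smaller ratio than *Pvalb* in *Dspp*+/- were fast-fibre genes, named here after their values were seen. *Myh4*, the myosin of IIb fibres, was at 124, 18.1 and 111 FPKM in WT, *Dspp*+/- and *Dspp*-/-. *Actn3*, fast alpha-actinin, was at 122, 31.0 and 89.5 FPKM, and *Mybpc2*, fast myosin binding protein C, at 129, 56.8 and 95.04. Their folds to WT in *Dspp*+/- were 0.147 (0.141 to 0.153), 0.254 (0.242 to 0.267) and 0.439 (0.424 to 0.454), so *Pvalb* was on their side, with a smaller difference than any of them. *Myh2*, the myosin of IIa fibres, was on the other side, at 342, 706 and 359 FPKM in WT, *Dspp*+/- and *Dspp*-/-, and *Myh1*, the myosin of IIx fibres, was at 671, 747 and 726. The 10 fast-fibre markers summed to 5140, 6126 and 4624 FPKM in WT, *Dspp*+/- and *Dspp*-/-, and the median log2 ratio of the 9 that averaged 1 FPKM or more was 0.16 and -0.20. The first of these medians turned negative under scaling to housekeeping genes and under scaling without hemoglobin, immunoglobulin and muscle genes.

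Markers of slow fibres were scarcer. The 8 slow-fibre markers summed to 72.6, 116 and 75.9 FPKM, and the 5 that averaged 1 FPKM or more had median log2 ratios of 0.56 and -0.07, of which the first became 0.28 under housekeeping scaling and the second turned to 0.02 over the markers averaging 5 FPKM or more. *Myoz2*, a Z-disc protein, was at 43.4, 64.3 and 44.2 FPKM, and *Tpm3*, slow tropomyosin, at 19.5, 23.9 and 23.29. *Myh7*, the slow myosin itself, was under the filter at 0.138, 1.04 and 0.297 FPKM. *Atp2a2* and *Casq2*, genes of slow fibres among the 9, were also highest in the library where these markers summed highest, and the markers' part in that was not tested. That match is not particular to slow fibres. The contractile and fast-fibre lists also summed highest in *Dspp*+/-, at 19090 and 6126 FPKM, and the fast-fibre gene *Atp2a1* was highest there too.

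**Figure D4:**
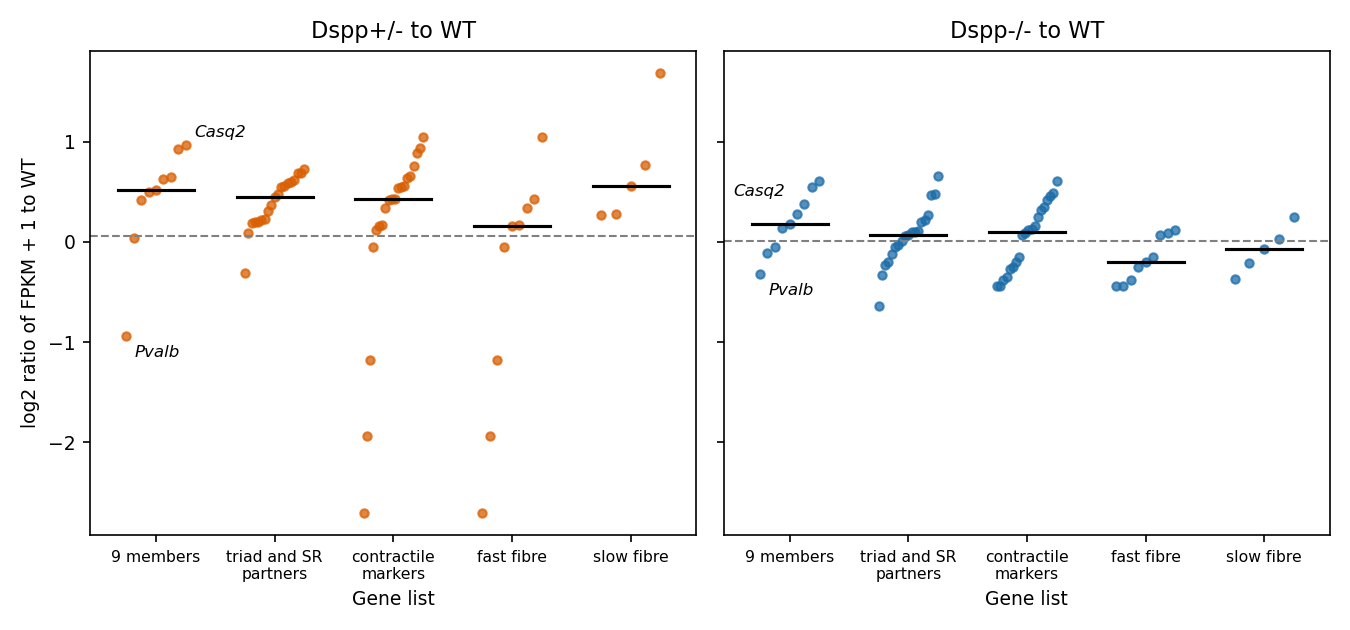
The log2 ratio of FPKM + 1 to WT for each gene of 5 lists in Dspp+/- (left) and Dspp-/- (right), 1 library each, where black bars are list medians and the dashed line is the median of all genes compared. All 9 members are drawn, and of the other lists the genes averaging 1 FPKM or more. Pvalb is the lowest member in both libraries, and 3 fast-fibre markers lie below it in Dspp+/-.

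Markers of heart, which uses several of the same genes, were near the limit of detection, and most of those of smooth muscle were not. Of 8 heart markers 5 were in the table and only *Myl4*, an atrial myosin light chain, averaged 1 FPKM or more, at 1.03, 1.25 and 0.853, beside *Tnni3*, cardiac troponin I, at 0.287, 0.103 and 0.305. The heart markers summed to 1.45, 1.44 and 1.34 FPKM in WT, *Dspp*+/- and *Dspp*-/-, with log2 ratios of 0.15 and -0.13 for the 1 that was compared. Smooth muscle markers summed to 91.9, 114 and 98.7 FPKM, led by *Acta2*, smooth muscle actin, at 34.8, 41.0 and 35.4 and *Synpo2*, an actin binding protein, at 23.26, 38.8 and 32.4. Of the 8, 6 averaged 1 FPKM or more, with median log2 ratios of 0.27 and 0.05 (0.01 and -0.01 under housekeeping scaling). In each mutant library 4 of these 6 were above WT and 2 below. The other 2 of the 8, *Tagln* and *Cnn1*, averaged under 1 FPKM. The log2 ratios to WT of *Synpo2* were 0.71 and 0.46, beside 0.23 and 0.02 for *Acta2*, and which cells made these transcripts was not tested. The markers found of neurons, which also use *Pvalb*, were near the limit of detection. Of 7 neuron markers only 4 were in the table. Of these only *Stmn2*, of growing axons, averaged 1 FPKM or more, at 1.07, 1.59 and 1.41, beside *Rbfox3* at 0.0594, 0.0510 and 0. The 4 summed to 1.18, 1.74 and 1.44 FPKM, and the log2 ratio of the 1 compared was 0.32 and 0.22. The part of neurons in the level of *Pvalb* was not tested. Satellite cell and myogenic genes summed to 27.7, 47.9 and 33.8 FPKM, with medians of 0.61 and 0.18 over 2 genes, the muscle regulators *Myf6* (19.2, 37.3 and 25.3) and *Myod1* (6.93, 8.69 and 6.76).

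The partners of these proteins at the triad and in the SR were, like the members other than *Pvalb*, mostly above WT in *Dspp*+/-. Of 20 listed, 19 were in the table and all 19 averaged 1 FPKM or more. In *Dspp*+/- 18 were above WT and 1 below, with a median log2 ratio of 0.44, which became 0.18 under housekeeping scaling, and a range from -0.31 to 0.73. Of the same 19, 12 were above and 7 below in *Dspp*-/-, with a median of 0.06 and a range from -0.64 to 0.66, and this median fell below 0 under scaling to housekeeping genes and without hemoglobin, immunoglobulin and muscle genes. No partner was 2-fold from WT in either library. *Tmem38a*, an SR cation channel and the most abundant partner, was at 148, 216 and 143 FPKM, and *Srl*, sarcalumenin, a calcium binding protein of the SR, at 93.1, 137 and 108.

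In *Dspp*+/- the highest partner ratios were those of *Jph1*, *Sypl2* and *Hrc*. *Jph1*, junctophilin, which holds the triad membranes together, was at 21.2, 35.8 and 29.8 FPKM in WT, *Dspp*+/- and *Dspp*-/-, a fold of 1.69 (1.60 to 1.78) in *Dspp*+/-. *Sypl2*, mitsugumin 29 of the triad, was at 19.2, 31.6 and 22.1, and *Hrc*, a histidine-rich calcium binding protein of the SR, at 50.6, 82.1 and 54.2. The lowest were *Fkbp1a*, which binds and steadies Ryr1, at 36.4, 29.1 and 31.5 FPKM, then *Mrln*, myoregulin, another small SERCA inhibitor, at 4.31, 4.67 and 4.34, and *Bin1*, which shapes the tubules, at 60.3, 69.1 and 47.7. *Fkbp1a* was thus the 1 partner below WT in *Dspp*+/-, with a log2 ratio of -0.31. *Mrln* outnumbered *Sln* and *Pln* in every library and had log2 ratios to WT of 0.09 and 0.01.

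The highest partner ratio in *Dspp*-/- was that of *Trdn*, triadin, which anchors calsequestrin to Ryr1, at 36.0, 55.6 and 57.4 FPKM and a fold of 1.60 (1.55 to 1.65). *Jph1* had a log2 ratio of 0.47 there, and so did *Cacna2d1*, an auxiliary subunit of the voltage sensor, at 18.2, 25.9 and 25.7 FPKM. The lowest was *Jsrp1*, a triad protein that binds the voltage sensor, at 88.8, 102 and 56.6 FPKM and a fold of 0.637 (0.598 to 0.678). *Bin1* followed with a log2 ratio of -0.33 and *Jph2*, the other junctophilin of muscle (45.0, 55.8 and 38.1 FPKM), with -0.23. Transcripts for parts of the same junction were thus found on either side of WT in *Dspp*-/-, as *Cacna1s* and *Ryr1* were.

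Calcium genes that other cells use were split about evenly around WT. Muscle fibres may use some of them too, and the part of muscle RNA in their values was not tested. Of 25 such channels, pumps and exchangers, 17 averaged 1 FPKM or more, with median log2 ratios of -0.08 in *Dspp*+/- (8 above 0 and 9 below) and -0.12 in *Dspp*-/- (7 above and 10 below). The most abundant in WT, the reticulum chaperones *Calr* and *Canx*, were at 103, 105 and 69.8 FPKM and at 46.2, 49.3 and 48.8. In each mutant library 1 of the 17 was 2-fold higher and 1 was 2-fold lower, named after their values were seen. *Atp2a3*, the SERCA3 pump of blood and other non-muscle cells, was at 8.85, 25.4 and 21.9 FPKM, a fold of 2.87 (2.67 to 3.09) in *Dspp*+/- and 2.48 (2.30 to 2.67) in *Dspp*-/-. *Slc8a3*, a sodium-calcium exchanger, was at 19.3, 9.05 and 8.81 FPKM, a fold of 0.469 (0.436 to 0.504) and 0.456 (0.423 to 0.491). The third SERCA gene therefore differed more from WT than *Atp2a1* and *Atp2a2* did, in both libraries.

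The other calcium buffers and sensors had medians close to WT, with signs that depended on scaling. Of 16 listed, 12 averaged 1 FPKM or more, with median log2 ratios of 0.03 and 0.02 (-0.23 and -0.04 under housekeeping scaling) and none 2-fold from WT. *Calm2*, a calmodulin gene and the most abundant of them in WT, was at 175, 121 and 166 FPKM. The 10 housekeeping genes had medians of 0.20 and 0.06, with *Rplp0*, a ribosomal protein gene, at 488, 467 and 426 FPKM and *Actb*, cytoplasmic actin, at 277, 344 and 348. *Gapdh*, which shares sequence with other genes, was at only 3.789, 7.9 and 2.24 FPKM.

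Genes whose pair of log2 ratios to WT lay nearest to that of a member were sought among 7130 genes whose mean was 5 FPKM or more, by Euclidean distance over the 2 ratios. These pairs rest on 3 libraries and describe likeness only. Nearest to *Atp2a1*, at distances from 0.02 to 0.03 on the log2 scale, were *Trap1*, *Ndufa11*, *Ndrg2*, *Plin4* and *Cbfa2t3*. Nearest to *Atp2a2*, at 0.01 to 0.04, were *Pgm5*, *Slc27a1*, *Cyc1*, *Rxrg* and *Mcf2l*. *Trap1* and *Cyc1* encode mitochondrial proteins, as does *Ndufa11*. Nearest to *Sln*, at 0.03 to 0.04, were *Cat*, *Pnpla2*, *Cmtm7*, *Itgb7* and *Amot*, and nearest to *Pln*, at 0.01 to 0.02, were *Ccng1*, *Psma1*, *Tle4*, *Ero1a* and *Acvr2a*. For these 2 members the likeness rests on adding 1 to each value, which shrinks their ratios far more than those of genes over 5 FPKM. Their linear folds to WT in *Dspp*+/- were 4.57 and 3.03. In WT and *Dspp*+/-, *Cat* was at 41.2 and 78.1 FPKM and *Ccng1* at 100 and 145 FPKM. Among those nearest to *Pvalb*, named after their values were seen, were *Pard6g*, *Zfp354c*, *Mxra8* and *Tmem263*, at 0.05 to 0.06. None of these genes is on the muscle lists used here.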

How the data were processed

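RNA of mandibular condyles from 3 genotypes, 1 library each, was sequenced by CapitalBio Technology after poly(A) selection with a NEBNext Ultra kit (paired reads of 150 bases). The authors deposited 1 table of 26970 mouse genes whose unit is not named in the sources used here. These deposited values were read as FPKM, because value times merged exon length of GENCODE M21 was a whole number of fragments (within 0.15) in all 3 libraries for 26214 of 26641 genes matched by identifier. The submitters' processing notes list FastQC 0.11.5, HISAT2 2.1.0, StringTie 1.3.3b, DESeq 1.28.0 and the human build hg38, with no role. Positions are those of the deposited table, and 563 genes share both ends with GENCODE M21, so they belong to a build other than GRCm38, not given in the sources used here. The labels mention triplicates, while the paper gives pools of 3 animals for WT and *Dspp*+/-, and each value was taken as that of 1 pooled library.

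From the FPKM values, log2 ratios of FPKM + 1 (which understate differences of genes with low values), linear folds and ratios within libraries were computed. Intervals on folds came from the recovered fragments and cover counting error only. Recovery was checked on simulated data. The 13026 genes averaging 1 FPKM or more were compared. The 9 genes, the lists (triad and SR partners, calcium routes of other cells, calcium buffers and sensors, contractile, fast fibre, slow fibre, heart, smooth muscle, satellite cell, neuron and housekeeping genes), the pairs and the motifs were chosen with earlier results of these data known. Genes named are the 9, the 2 of each list highest in WT, the 3 highest and 3 lowest partner ratios in each mutant library, and the 5 genes nearest to *Atp2a1*, *Sln*, *Atp2a2* and *Pln*. Others were named after their values were seen, to which *Tnnc2*, *Myh7*, *Gapdh*, *Tagln*, *Cnn1*, *Xist* and the 4 Y-linked genes belong. Some genes that these rules name are not reported here. *Dspp* was not analysed here, and the genotypes rest on the labels alone.

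Each ratio was recomputed under 7 settings: pseudocounts of 0.1 and 5, and scaling by median ratio, by upper quartile, to 10 housekeeping genes, by the sum without mitochondrial genes, and by the sum without hemoglobin, immunoglobulin and skeletal muscle genes. Other filters, fold thresholds and muscle references were tried too. Computation used Python 3.11.15 with scipy 1.17.1, pandas 2.3.3 and numpy 2.4.6, and plots used matplotlib 3.10.9.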

Additional observations from a re-analysis of the deposited data

Results flagged for a closer look

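*Atp2a2* and *Ryr1* lay on opposite sides of WT in the mutant libraries. *Atp2a2* was at a fold of 1.42 in *Dspp*+/- and 0.962 in *Dspp*-/-, and *Ryr1* at 1.34 and 0.926. The difference between the mutant effects was not tested, since each genotype has 1 library. For *Atp2a2* the direction in *Dspp*-/- turned when values were scaled without mitochondrial genes, while that of *Ryr1* was kept in all 7 settings, with log2 ratios from -0.27 to -0.03.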

How the results depend on the processing

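Of the 9 genes, only *Casq1* in *Dspp*+/- (3 of 7 settings), *Casq1* in *Dspp*-/- (1) and *Atp2a2* in *Dspp*-/- (1) changed direction against WT. The median of the 9 log2 ratios in *Dspp*-/-, 0.18, became 0.16 with a pseudocount of 5, 0.16 with median-ratio, 0.20 with upper-quartile and 0.11 with housekeeping scaling, 0.26 without mitochondrial genes and 0.0083 without hemoglobin, immunoglobulin and muscle genes. That in *Dspp*+/-, 0.52, ran from 0.35 with housekeeping scaling to 0.62 with a pseudocount of 0.1. Housekeeping scaling shifted the median of all genes by -0.22 in *Dspp*+/- and -0.06 in *Dspp*-/-, and scaling without hemoglobin, immunoglobulin and muscle genes by -0.16 and -0.14. Of the 7 members averaging 1 FPKM or more, 1 (*Casq2*) was 2-fold higher with a pseudocount of 0.1 in *Dspp*+/- and 3 were 1.5-fold higher, and at that pseudocount *Sln* and *Pln*, which average under 1 FPKM, had log2 ratios of 1.91 and 1.31. Of the same 7, 1 (*Pvalb*) was 2-fold lower under median-ratio scaling, housekeeping scaling and scaling without hemoglobin, immunoglobulin and muscle genes, and 1 was 1.5-fold lower. *Pvalb* relative to muscle in *Dspp*+/-, -1.37, became -1.48 against *Acta1*, -1.10 against fast-fibre and -1.50 against slow-fibre markers, and -1.48 without *Myh4*, *Actn3* and *Mybpc2*, a setting chosen after seeing the data. In *Dspp*-/- its -0.42 became -0.67, -0.12 and -0.25 against *Acta1*, fast-fibre and slow-fibre markers. The cause of these shifts was not tested.

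No paired analysis was possible because each genotype has 1 library and the labels carry no replicate numbers, and leaving out a replicate was not possible for the same reason. Depth limits *Sln* and *Pln*, with 9 to 57 fragments in a library.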
